A study of Homo sapiens with 10 samples.

Results

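The BCL2 family decides whether a cell's mitochondria release the signal for apoptosis, and its RNA levels were followed here over 10 arrays of human myeloid cell lines. The members were 10 genes chosen by symbol and grouped by role. BCL2, BCL2L1, MCL1 and BCL2A1 were taken as guardians, BAX and BAK1 as effectors, and BCL2L11, BID, PMAIP1 and BBC3 as BH3-only genes. A named probe set was found for 9 of the 10 members among 17687 named genes. BBC3 is unnamed in the probe annotation used here and has no value below.

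The series compared cells treated with OR21, called OR-2100 in its title and described there as a hypomethylating agent, with untreated cells. Each of 4 lines gave 1 control and 1 OR21-treated array: HL60 (acute myeloid leukaemia), K562 (chronic myeloid leukaemia), MDSL and SKM1 (both placed under myelodysplastic syndrome by the labels). Cells were exposed for 96 h. The dose was 500 nM for HL60 and K562 but 100 nM for MDSL and SKM1, so dose and disease cannot be told apart. The other 2 arrays held derivatives of HL60, 1 labelled AZA resistant and 1 labelled OR21 resistant. Both carry the control label for treatment, and how they were selected and cultured is not given in the sources used here. Every condition had 1 array. No label says whether arrays came from separate cultures.

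Guardians hold cells alive by binding the effectors and the BH3-only proteins at the outer mitochondrial membrane. When BH3-only proteins fill the guardians or engage the effectors directly, BAX and BAK1 oligomerise, cytochrome c leaves the mitochondria, and APAF1 and CASP9 form the apoptosome. Myeloid leukaemias are known to differ in whether they lean on BCL2, BCL-xL (the long protein of BCL2L1) or MCL1, which is the basis of BH3-mimetic drugs such as venetoclax. The arrays measured RNA per gene, so protein levels and the opposing isoforms of BCL2L1, MCL1 and BCL2L11 were not told apart.

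Values are log2 intensities, on which a difference of 1 is 2-fold, and a level of 1 gene was not set against that of another. The median gene of an array lay at 6.63 to 7.05 log2. Hybridisation spikes averaged 10.85 to 11.10 log2 on 9 arrays and 11.71 on that of OR21-treated HL60, which stood apart in this and in its polyadenylated spikes (8.06 against 6.86 to 7.51), so members in HL60 are also given with arrays scaled to the spikes. The background median was 5.41 to 5.43 log2 on 9 arrays and 4.98 on that of untreated MDSL. Of the lineage markers, untreated HL60 had MPO, a granule enzyme, at 17.01 log2, untreated K562 had GATA1, an erythroid factor, at 13.14, and untreated MDSL had CD34, a progenitor marker, at 14.68. Untreated SKM1 had KIT, a progenitor receptor, at 12.55, with CD34 at 4.71 and under background. The promyelocytic list did not set HL60 apart from SKM1, whose MPO was 17.08 and whose summed intensity over the list was 208700 against 193500. Of the erythroid list, HBE1, GATA1 and KLF1 were highest in K562, but TFRC was at 14.38 there and 14.39 in MDSL. Of the progenitor list, CD34 and CD38 were highest in MDSL and KIT and FLT3 in SKM1. CEBPA and SPI1 were highest in HL60, at 11.29 and 12.05, and CD38 was at 6.40 in SKM1 against 7.66 in HL60. K562 also had the highest sum of epithelial markers, 74640 against 709.4 to 6370 in the other controls.

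The promoters of 2 guardians are shown first, since BCL2 and BCL2A1 had the widest mean differences with OR21 among the members, in opposite directions, and hypomethylating agents act on the methyl groups of CpG sites. DNA methylation was not measured in these files. The windows are the 250 bases before the RefSeq start of each gene in GRCh38.p14, read 5′ to 3′ on the strand of the gene, with each CpG in capitals. The BCL2 window lies at chr18:63319770-63320019 on the minus strand and that of BCL2A1 at chr15:79971197-79971446 on the minus strand.
BCL2: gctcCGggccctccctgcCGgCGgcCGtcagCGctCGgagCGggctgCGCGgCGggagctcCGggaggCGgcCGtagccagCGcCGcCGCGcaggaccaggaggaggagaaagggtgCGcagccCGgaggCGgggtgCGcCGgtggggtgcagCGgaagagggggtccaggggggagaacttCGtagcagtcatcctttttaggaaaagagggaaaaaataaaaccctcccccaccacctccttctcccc
BCL2A1: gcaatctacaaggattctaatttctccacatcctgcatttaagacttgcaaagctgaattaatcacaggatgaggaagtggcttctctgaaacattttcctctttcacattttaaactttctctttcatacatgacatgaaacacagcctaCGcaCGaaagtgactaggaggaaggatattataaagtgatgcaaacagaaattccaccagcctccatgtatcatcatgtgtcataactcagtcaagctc
The BCL2 window held 24 CpG and that of BCL2A1 held 2, against a median of 11 over 35116 windows of the same length. As many CpG as in the BCL2 window were found in 23.7% of those windows, and as many as in the BCL2A1 window in 85.3%. At least 1 CpG was present in 93.9% of windows. The BCL2A1 window also held 1 match to TTCNNNGAA, a palindrome that STAT factors are known to bind and that 6.57% of windows held. The table gave no entry for MCL1.

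BCL2, the guardian that venetoclax inhibits, was lower with OR21 in each of the 4 lines, although the adjusted p missed 0.05. Its level was 10.06 log2 in control and 7.37 in treated HL60, 10.26 and 8.79 in MDSL, 11.50 and 9.97 in SKM1, and 7.53 and 5.89 in K562. Every treated array lay under the control of its own line, while the treated and control ranges over lines overlapped. HL60 differed by -2.69, MDSL by -1.47, SKM1 by -1.52 and K562 by -1.64. Treated K562 stood 0.48 above its background median, which limits the size there, and scaled to the spikes the HL60 difference was -3.45. Its mean was -1.83 ± 0.58 log2 (SD, n = 4 lines), with an adjusted p of 0.102 by limma over all genes. Of 17687 genes, 21 had a lower mean. An exact sign-flip test over the 4 lines gave 0.125 (two-sided), the smallest p that 4 lines allow. BCL2 was at least 2-fold lower in all 4 lines, which held for 40 genes, or 0.226% of those measured. With arrays scaled to the hybridisation spikes, the mean was -1.96 and the adjusted p by limma 0.0194, the only alternative run in which a member passed. In that run 240 genes passed by limma, against 7 in the main run. The lines were then further apart for BCL2, at -3.45 in HL60 against -1.41 to -1.53 in the others. Without HL60 the mean was -1.54 ± 0.09 (SD, n = 3 lines), with an adjusted p by limma of 0.177.

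BCL2A1, a guardian that NF-kB is known to induce in myeloid cells, was higher with OR21 in HL60, MDSL and SKM1. Its level was 10.36 log2 in control and 14.45 in treated HL60, 13.58 and 14.98 in MDSL, 5.83 and 10.63 in SKM1, and 5.45 and 4.97 in K562. K562 was near background on both arrays: its control stood 0.03 log2 above the background median and its treated array 0.44 under it, so the size of the K562 difference has no meaning. This treated K562 value was the only value of any member at or under the background median. The SKM1 control stood 0.41 above its background median, and the treated SKM1 array 5.21 above. The differences were 4.09 for HL60, 1.40 for MDSL, 4.80 for SKM1 and -0.48 for K562, with a mean of 2.45 ± 2.44 log2 (SD, n = 4 lines) and an adjusted p of 0.202 by limma. These use the K562 value. Without K562 the mean was 3.43 ± 1.79 (SD, n = 3 lines; adjusted p = 0.117 by limma). Scaled to the spikes, the HL60 difference was 3.32. In SKM1, 42 genes had a larger difference upward, and in HL60, 138 genes.

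MCL1, a short-lived guardian on which many myeloid cells depend, differed in direction between K562 and the other lines. Its level was 12.82 log2 in control and 14.53 in treated HL60, 13.35 and 14.00 in MDSL, 13.24 and 14.03 in SKM1, and 13.35 and 12.30 in K562. The treated array was the higher one in HL60, MDSL and SKM1 and the lower one in K562. The differences were 1.71, 0.65, 0.79 and -1.05 in that order, with a mean of 0.53 ± 1.15 log2 (SD, n = 4 lines; adjusted p = 0.549 by limma). Without K562 the mean was 1.05 ± 0.58 (SD, n = 3 lines; adjusted p = 0.157 by limma), and without HL60 it was 0.13. Scaled to the spikes, the HL60 difference was 0.95 and that in K562 was -0.94.

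BCL2L1 encodes BCL-xL, a guardian known for its role in erythroid and platelet survival. Its level was 6.03 log2 in control and 6.78 in treated HL60, 9.27 and 10.63 in MDSL, 6.86 and 7.94 in SKM1, and 8.94 and 8.92 in K562. The treated array was higher in HL60, MDSL and SKM1, and the K562 arrays lay within 0.02 log2. The differences were 0.74, 1.36, 1.09 and -0.02, with a mean of 0.79 ± 0.60 log2 (SD, n = 4 lines; adjusted p = 0.188 by limma). Scaled to the spikes, the HL60 difference was -0.02 and that in K562 was 0.09, so the direction in those lines turned. In SKM1 the difference fell short of 2-fold, at 0.94, with arrays centred on their medians. It also fell short there with quantile normalization, at 0.95, and with a pseudocount of 16, at 0.99. The HL60 control stood 0.62 above its background median and the treated HL60 array 1.35, which limits the size there.

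**Figure D1:**
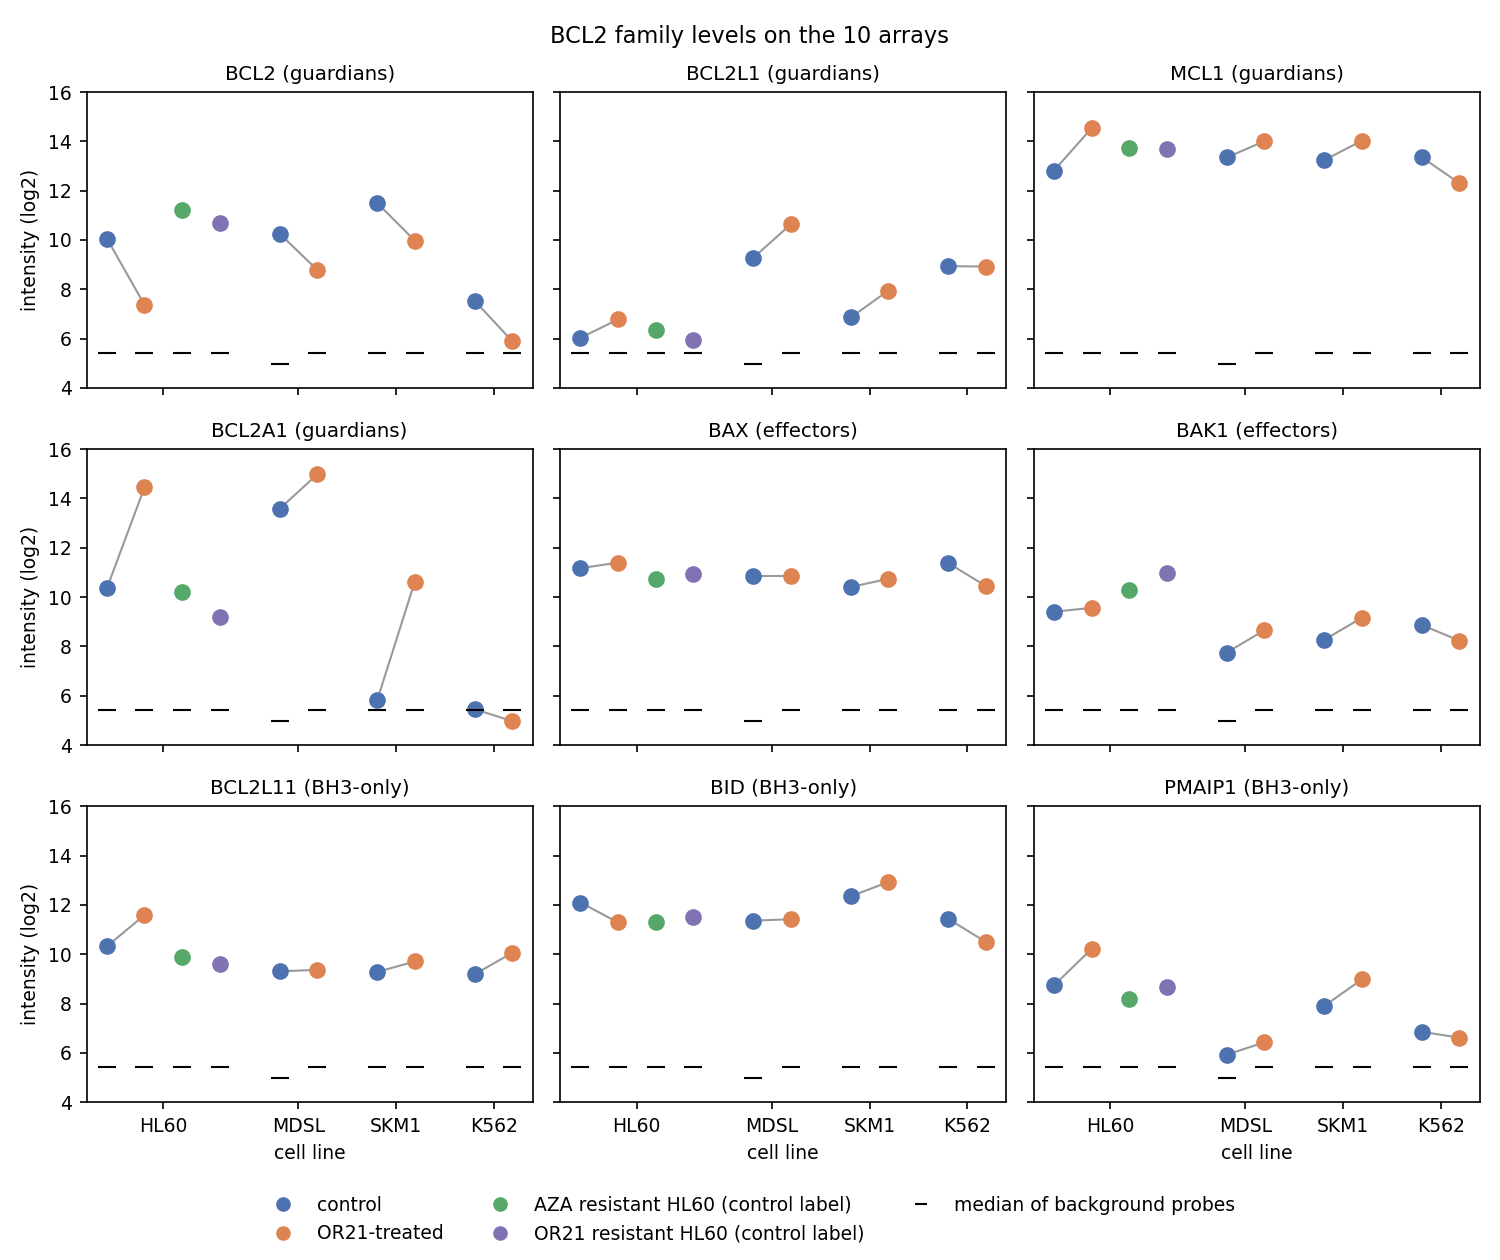
Log2 intensity (y axis) of the 9 measured members on the 10 arrays, by cell line (x axis); each point is 1 array, grey lines join control and OR21-treated arrays of a line, and black bars are each array's background median. BCL2 is lower on the treated array in every line, BCL2A1 runs from 4.97 in treated K562 to 14.98 in treated MDSL, and the BAX points stay between 10.41 and 11.40.

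The effectors had smaller differences. BAX, which moves from the cytosol into the mitochondrial membrane when activated, had 11.17 log2 in control and 11.40 in treated HL60, 10.86 and 10.86 in MDSL, 10.41 and 10.74 in SKM1, and 11.38 and 10.44 in K562. Only the K562 pair lay far apart, at -0.93, and the mean over lines was -0.09 ± 0.58 log2 (SD, n = 4 lines; adjusted p = 0.877 by limma). Without K562 it was 0.19. In HL60 the BAX difference of 0.23 became -0.54 with spike scaling, and in MDSL the difference of 0.00 became -0.05 with median centring and -0.10 with quantile normalization. The BAX promoter is shown because it held 4 copies of CACGTG, the E-box that MYC and related factors are known to bind, in capitals (chr19:48954625-48954874, plus strand).
BAX: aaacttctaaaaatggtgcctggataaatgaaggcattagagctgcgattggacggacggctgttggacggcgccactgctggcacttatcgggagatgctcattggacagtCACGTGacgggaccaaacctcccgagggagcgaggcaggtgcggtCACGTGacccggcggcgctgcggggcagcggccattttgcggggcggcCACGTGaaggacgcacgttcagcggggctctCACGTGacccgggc
CACGTG is its own reverse complement and contains 1 CpG. It was present in 6.34% of windows, and 5 windows, or 0.0142%, held at least 4 copies. This match is a description of the letters, and no binding was measured.

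BAK1, the effector that resides in the mitochondrial membrane, had 9.41 log2 in control and 9.57 in treated HL60, 7.75 and 8.65 in MDSL, 8.27 and 9.16 in SKM1, and 8.87 and 8.23 in K562. The MDSL and SKM1 differences were alike in size, at 0.90 and 0.89, against 0.16 in HL60 and -0.64 in K562. The mean was 0.33 ± 0.73 log2 (SD, n = 4 lines; adjusted p = 0.597 by limma), and it was 0.14 without either MDSL or SKM1 and 0.65 without K562. In HL60 the direction turned with spike scaling, at -0.60, and with median centring, at -0.01.

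Among the BH3-only genes, BCL2L11 was higher with OR21 in all 4 lines. It encodes BIM, which binds every guardian and can activate BAX and BAK1. Its level was 10.32 log2 in control and 11.59 in treated HL60, 9.31 and 9.37 in MDSL, 9.28 and 9.71 in SKM1, and 9.19 and 10.06 in K562. The treated array was the higher one of each pair, by 1.27 for HL60, 0.07 for MDSL, 0.43 for SKM1 and 0.87 for K562. Over lines the mean was 0.66 ± 0.52 log2 (SD, n = 4 lines), with an adjusted p of 0.220 by limma and an exact sign-flip p of 0.125, again the smallest possible. The HL60 difference was 0.51 with spike scaling. In MDSL the control array had the lower background, and relative to background the level was 4.33 in control and 3.96 in treated cells, the opposite direction. FOXO factors are known to induce BCL2L11, and its promoter window (chr2:111120664-111120913, plus strand) is shown for the forkhead letters GTAAACA, in capitals.
BCL2L11: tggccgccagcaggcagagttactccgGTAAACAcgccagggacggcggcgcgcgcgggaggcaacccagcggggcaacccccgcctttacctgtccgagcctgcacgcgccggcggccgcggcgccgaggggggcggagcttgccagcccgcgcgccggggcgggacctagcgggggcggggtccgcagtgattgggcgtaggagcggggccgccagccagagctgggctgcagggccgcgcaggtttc
This window held 1 copy of GTAAACA, searched on both strands, and 2.98% of windows held any. It held 34 CpG, a number that 6.84% of windows reached.

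PMAIP1 encodes NOXA, a BH3-only protein that binds MCL1 and BCL2A1 and that stress pathways are known to induce. Its level was 8.74 log2 in control and 10.22 in treated HL60, 5.93 and 6.43 in MDSL, 7.91 and 8.98 in SKM1, and 6.86 and 6.62 in K562. It was at least 2-fold higher in HL60, by 1.48, and in SKM1, by 1.07, against 0.50 in MDSL and -0.24 in K562. The mean was 0.70 ± 0.74 log2 (SD, n = 4 lines; adjusted p = 0.274 by limma), and 0.44 without HL60. The MDSL arrays stood 0.95 and 1.01 above their own background medians, in control and treated cells. Scaled to the spikes, the HL60 difference was 0.72, and with median centring the SKM1 difference was 0.93.

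BID links death receptors to mitochondria, since CASP8 cuts it into its active form. Its level was 12.10 log2 in control and 11.29 in treated HL60, 11.36 and 11.42 in MDSL, 12.35 and 12.93 in SKM1, and 11.43 and 10.50 in K562. Both lines at 500 nM were lower, by -0.81 and -0.93, and both at 100 nM were higher, by 0.06 and 0.58. With quantile normalization the MDSL difference was -0.05. Relative to background, the MDSL level was 6.39 in control and 6.00 in treated cells, also the opposite direction. With spike scaling the HL60 difference was -1.57, past 2-fold, where the median of all genes was -0.81. The mean over all lines was -0.28 ± 0.72 log2 (SD, n = 4 lines; adjusted p = 0.662 by limma), and it ran from -0.56 without SKM1 to -0.06 without K562.

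Counted over all members, 0 of 9 passed an adjusted p of 0.05 over the 4 lines by limma, and 7 genes, or 0.0396%, passed among all genes. At an unadjusted p under 0.05 there were 4 of 9 members, BCL2, BCL2L1, BCL2A1 and BCL2L11, beside 19.1% of all genes. Without HL60 the counts were 0 of 9, beside 0.00565% of genes, and 2 of 9, BCL2 and BCL2L1, beside 14.1%. For the difference between the 500 nM and the 100 nM lines, 0 of 9 members and 0.00% of all genes passed after adjustment by limma. At an unadjusted p under 0.05 there were 2 of 9, against 5.47% of all genes. They were BAK1, at -1.14 log2 (SE 0.42), and BID, at -1.19 (SE 0.38), each with an adjusted p of 0.877 by limma.

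Single lines had no replicate, so members were counted past 2-fold beside the share of all genes. In HL60, 4 of 9 members were at least 2-fold higher, MCL1, BCL2A1, BCL2L11 and PMAIP1, beside 10.2% of genes. BCL2 alone was at least 2-fold lower there, beside 11.1%. With spike scaling the HL60 counts were 1 higher and 2 lower, with BID joining BCL2, so those of MCL1, BCL2L11 and PMAIP1 rest on the scaling. The median of all genes was then -0.81 in HL60, and the shares given here are those without that scaling. Markers of other cell types also differed on the treated HL60 array: 7 of 7 T and NK lymphocyte genes were higher on it than on the HL60 control, with a summed intensity of 1529 against 414.9. CD3G and CD8A stayed at or under background there, and the sum of the list lay between 414.9 and 1156 over the 4 controls and between 479.9 and 2036 over the 4 treated arrays. Epithelial genes were higher for 4 of 5, with a sum of 6481 against 709.4 and over 4 controls from 709.4 to 74640, and the part of these genes in the members' differences was not tested. HL60 promyelocytic markers were lower for 4 of 4, with a sum of 72290 against 193500 in the control. In bulk RNA, fewer cells of a type and less RNA per cell cannot be told apart.

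MDSL had 2 members at least 2-fold higher, BCL2L1 and BCL2A1, beside 6.62% of genes, and 1 lower, BCL2, beside 4.88%. SKM1 had 3 higher, BCL2L1, BCL2A1 and PMAIP1, beside 7.10%, and 1 lower, BCL2, beside 4.47%. With median centring, the SKM1 count of higher members was 1, and with quantile normalization or a pseudocount of 16 it was 2. K562 had 0 members higher, beside 5.05% of genes, and 2 lower, BCL2 and MCL1, beside 3.86%. Its lower count was 1 with spike scaling, where MCL1 missed 2-fold, and 4 with median centring, where BAX at -1.08 and BID at -1.08 joined. Median centring shifted the K562 median of all genes by -0.14, and the shares given here are those of the main run. Markers differed in these lines too. In MDSL, 6 of 7 T and NK lymphocyte genes were higher on the treated array (sum 1238 against 761.5, with CD3D, CD3G and CD8A at or under background) and 5 of 6 progenitor genes were lower (sum 22880 against 39660). In SKM1, 6 of 7 T and NK genes were higher (sum 2036 against 1156, with CD3G, CD2, CD8A and GNLY at or under background) and 3 of 4 promyelocytic genes were lower (sum 89610 against 208700). In K562, 3 of 4 erythroid genes were higher (sum 90730 against 43850), of which only HBE1, at 2.37, passed 2-fold. Erythroid genes were also higher for 3 of 4 in MDSL, each at least 2-fold (sum 26050 against 23570). In SKM1 they were higher for 2 of 4 (sum 11100 against 18570), with GATA1 at 3.80. The part of these markers in the members' differences was not tested. The median over the 9 members was 0.74 for HL60, 0.50 for MDSL, 0.79 for SKM1 and -0.64 for K562, against -0.05, -0.04, -0.02 and -0.00 over all genes. Spike scaling lowered the HL60 median of all genes by 0.76, and shifts elsewhere under any scaling were at most 0.17 in size.

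**Figure D2:**
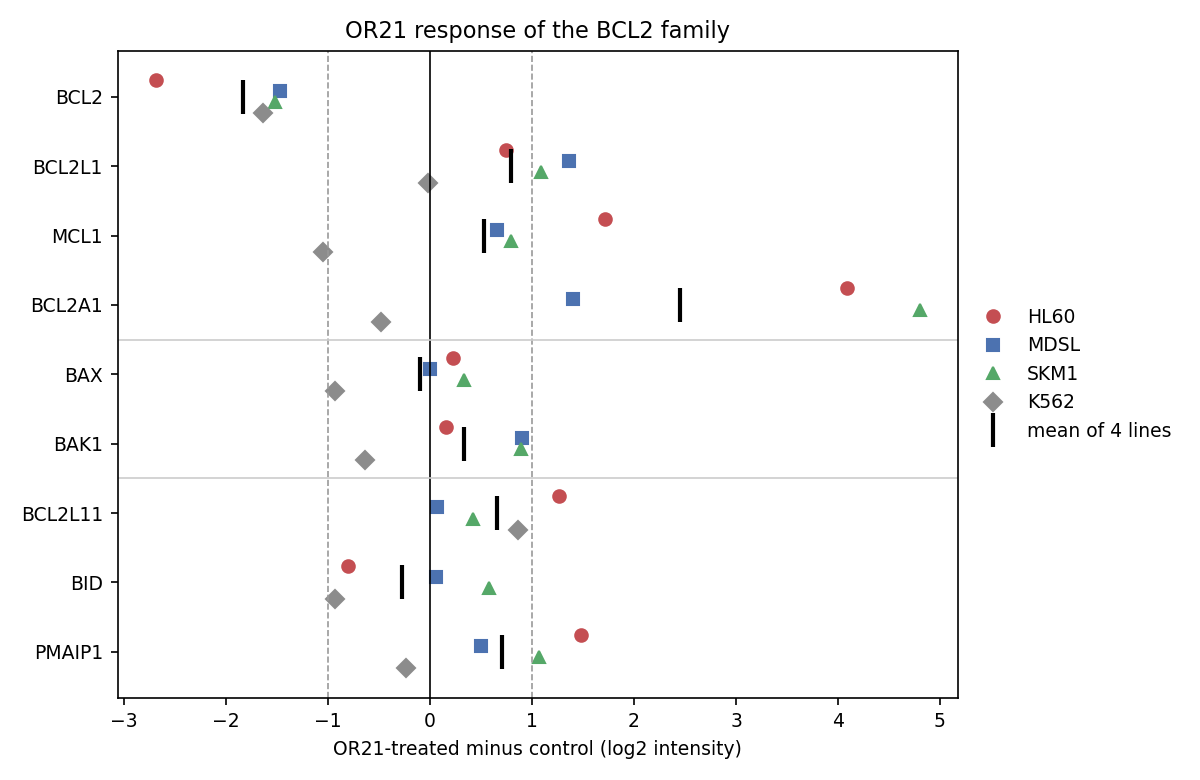
OR21-treated minus control log2 intensity (x axis) of each member (y axis, with grey lines between guardians, effectors and BH3-only genes), with 1 symbol per line, a black bar for the mean of 4 lines and dashed lines at 2-fold. BCL2 lies left of -1 in every line, BCL2A1 reaches 4.80 in SKM1, and the K562 symbol lies left of 0 for every member but BCL2L11.

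Before treatment, the lines differed most in BCL2A1. Its 4 control levels ran from MDSL at 13.58 through HL60 at 10.36 and SKM1 at 5.83 to K562 at 5.45, a range of 8.13 log2, and 0.56% of genes had a wider one. SKM1 and K562 were neighbours 0.37 apart and close to background, so the range is a minimum. BCL2 was highest in SKM1, followed by MDSL and HL60, which lay 0.20 apart, and was lowest in K562, a range of 3.97 that 6.11% of genes exceeded. BCL2L1 had another order, from MDSL and K562, 0.33 apart, to SKM1 and HL60, with a range of 3.24 that 9.23% of genes exceeded. Untreated HL60 stood 0.62 above background for BCL2L1, which limits that range. MCL1 varied little, with a range of 0.53 that 77.7% of genes exceeded.

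The effectors and BH3-only genes varied less at baseline than BCL2A1, BCL2 and BCL2L1. PMAIP1 had the widest range of these, 2.81 log2, from HL60 through SKM1 and K562 to MDSL, and BAK1 spanned 1.66 from HL60 down to MDSL. BCL2L11 spanned 1.13, with HL60 1.02 above MDSL and the other 3 lines within a narrow band from 9.19 to 9.31. BAX spanned 0.97 and BID 0.99. A range of at least 2-fold was found for 6 of 9 members, beside 49.2% of all genes, which is close to the background. With 1 array per line, the spread within a line is unknown, and no order was tested. The order of the 4 controls differed from that given for MCL1 and BCL2L11 with spike scaling, for BCL2 and BCL2L11 with median centring, and for MCL1 and BID with quantile normalization.

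The resistant derivatives were set against the untreated parental HL60 array, which both comparisons and the treated HL60 comparison share. BCL2 was at 11.22 log2 in AZA resistant and 10.69 in OR21 resistant cells against 10.06 in the parent, higher by 1.16 and 0.64. MCL1 was at 13.71 and 13.68 against 12.82, higher by 0.90 and 0.87. BCL2A1 was at 10.19 and 9.21 against 10.36, with differences of -0.17 and -1.15. BCL2L1 stayed near the parental 6.03, at 6.37 and 5.94. It stood 0.62 above background in the parent, 0.95 in AZA resistant and 0.52 in OR21 resistant cells, so a fall could hardly have shown. Among guardians, BCL2 and MCL1 were thus above the parent on both derivative arrays, and BCL2A1 and BCL2L1 were not both above it.

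Among the effectors, BAK1 was at 10.31 log2 in AZA resistant and 10.98 in OR21 resistant cells against 9.41, higher by 0.90 and 1.57. BAX was at 10.73 and 10.93 against 11.17, with differences of -0.45 and -0.24. All 3 measured BH3-only members were below the parent on both arrays. How many of all genes lay on the same side of the shared parental array on both was not counted, here or for the guardians. The differences were -0.42 and -0.72 for BCL2L11, at 9.90 and 9.61 against 10.32. They were -0.79 and -0.57 for BID, at 11.31 and 11.52 against 12.10. For PMAIP1, at 8.17 and 8.65 against 8.74, they were -0.57 and -0.09. In OR21 resistant cells 48.4% of genes lay further down than PMAIP1. BH3-only genes outside the members did not share this direction. BMF, at 0.39 and 0.20, and BIK, at 0.44 and 0.55, were above the parent on both arrays. BAD, at -0.07 and 0.30, and HRK, at 0.08 and -0.03, were mixed. HRK was near background, at 5.68 log2 in the parent, 5.76 in AZA resistant and 5.65 in OR21 resistant cells. The background medians there were 5.41 to 5.42, so the direction of HRK has no meaning.

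AZA resistant cells had 1 of 9 members at least 2-fold higher, BCL2, beside 7.04% of genes, and 0 lower, beside 5.11%. With median centring BCL2 fell just short of 2-fold and the count was 0, and with quantile normalization BAK1 joined at 1.01 and it was 2. OR21 resistant cells had 1 higher, BAK1, beside 7.69%, and 1 lower, BCL2A1, beside 4.27%. Shares near the background such as these say nothing particular about the members. Between the derivatives, 0 of 9 were 2-fold higher in OR21 resistant cells, beside 0.678% of genes, and 0 were lower, beside 0.888%. The nearest was BCL2A1, at -0.98, which passed 2-fold with spike scaling and, at -1.07, with quantile normalization. Member medians were -0.17 in AZA resistant and -0.09 in OR21 resistant cells, against -0.02 and -0.07 over all genes. None of these differences has a replicate check. Promyelocytic markers were lower for 4 of 4 in both derivatives, with sums of 114600 in AZA resistant and 82910 in OR21 resistant cells against 193500. The epithelial sums were 1246 and 1171 against 709.4, and those of T and NK genes 536.1 and 311.6 against 414.9, with 5 of 7 at or under background on each of the 3 arrays. Their part in the members' differences was not tested.

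**Figure D3:**
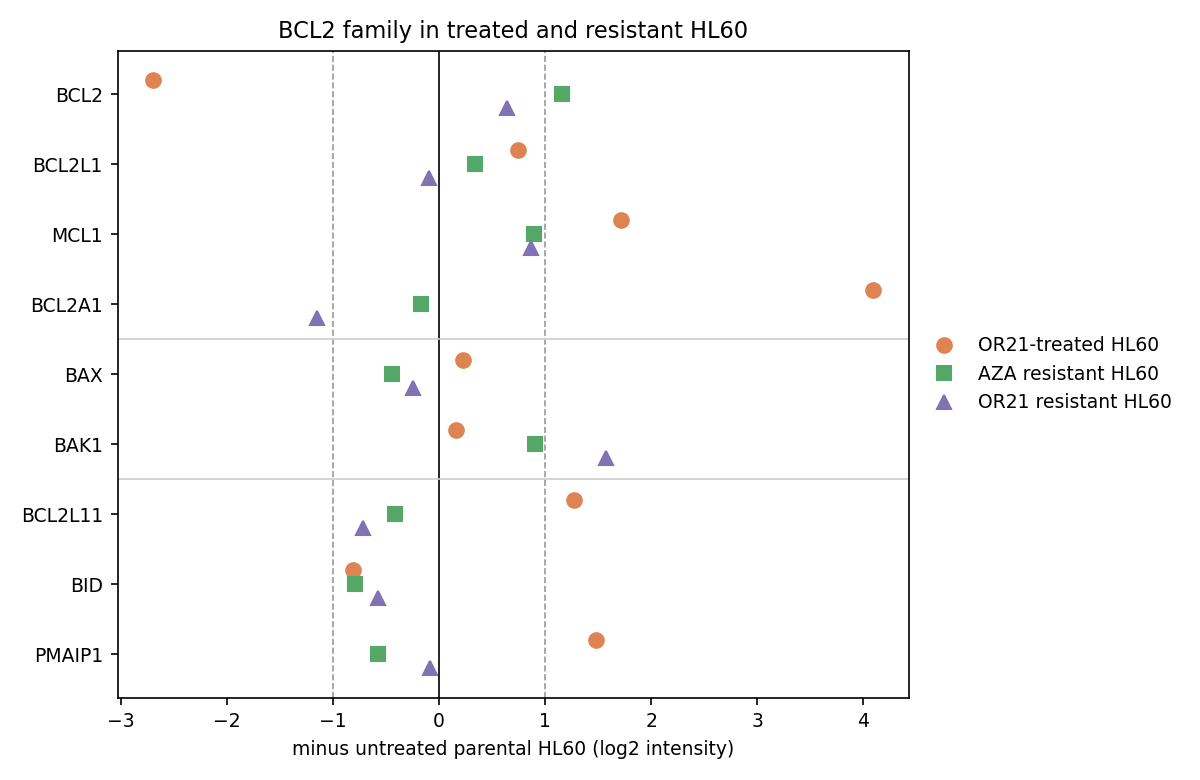
Log2 intensity minus untreated parental HL60 (x axis) for each member (y axis) in OR21-treated HL60 and in both resistant derivatives, 1 array each against the same parental array, with dashed lines at 2-fold. BCL2 is at -2.69 in treated cells and at 1.16 and 0.64 in the derivatives, and BAK1 is at 0.16, 0.90 and 1.57.

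Beyond the members, 13 other BCL2 family genes were measured. After adjustment by limma 0 of 13 passed, 4 had an unadjusted p under 0.05, and the means were higher for 9 and lower for 4, with a median of 0.13 log2 against -0.02 over all genes. These counts and those of the lists that follow stand beside the 19.1% of all genes at an unadjusted p under 0.05. Their counts of directions over the 4 lines stand beside 47.6% of all genes with a higher mean and 52.4% with a lower one. For directions without HL60 no share of all genes is given. BMF, a BH3-only gene linked to cytoskeletal stress, was higher by 2.15 for HL60, 0.64 for MDSL, 1.10 for SKM1 and 0.19 for K562 (mean 1.02 ± 0.84, SD, n = 4 lines; adjusted p = 0.184 by limma). BNIP3L, a mitophagy receptor, had a mean of 0.73 ± 0.74, with K562 the highest at 1.76. BNIP3, its hypoxia-induced relative, ran opposite ways, at -2.48 in HL60 and -1.53 in SKM1 against 0.51 in MDSL and 1.15 in K562.

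Downstream of the mitochondria, 6 of 8 apoptosome and executioner caspase genes were measured and 0 passed by limma, with 4 at an unadjusted p under 0.05, or 2 without HL60. CASP6, an executioner, was lower in all 4 lines, by a mean of -1.28 ± 0.59 log2 (SD, n = 4 lines; adjusted p = 0.118 by limma), and was also lower in AZA resistant cells, at -1.27, and OR21 resistant cells, at -1.41. APAF1, the scaffold of the apoptosome, had a mean of 1.07 ± 1.02 and CASP9, its initiator caspase, 0.83 ± 0.38, the latter higher in all 4 lines. Of the inhibitors of apoptosis, 0 of 4 measured passed by limma and 3 had an unadjusted p under 0.05, or 2 without HL60. BIRC5, or survivin, which is expressed in dividing cells, had a mean of -0.98 ± 0.57, BIRC2 one of 0.65 ± 0.33 and XIAP, which binds CASP9, one of 0.64 ± 0.57. BIRC2 was also higher in both derivatives, at 1.25 and 1.48.

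Upstream, 8 of 9 death receptor genes were measured, 0 passed by limma, 3 had an unadjusted p under 0.05, and their median was 0.43 log2. Without HL60, 0 of the 8 had an unadjusted p under 0.05. TNFRSF10B, a TRAIL receptor, had a mean of 1.35 ± 1.19 (SD, n = 4 lines; adjusted p = 0.184 by limma), from -0.18 in MDSL to 2.73 in HL60. CFLAR, which restrains CASP8, had a mean of 0.86 ± 1.04 and CASP8, the protease that cuts BID, one of 0.82 ± 1.13, and both were lower only in K562 among the 4 lines. Without HL60 the mean of CFLAR was 0.45 and that of CASP8 0.31. The 5 mitochondrial partners of the effectors and BID all had lower means, beside 52.4% of all genes. By limma 0 of them passed the test and 1 had an unadjusted p under 0.05, and their median was -0.24. VDAC1 and VDAC3, channels of the outer membrane, had means of -0.77 ± 1.22 and -0.69 ± 0.52, and MTCH2, the receptor for cleaved BID, one of -0.24 ± 0.37. Without HL60, 3 of these 5 partners had lower means and 2 higher ones, with a median of -0.13.

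Of 6 enzymes that add ubiquitin to MCL1 or remove it, 0 passed by limma and 2 had an unadjusted p under 0.05, with 2 means higher and 4 lower, or 5 higher and 1 lower without HL60. USP9X, which removes ubiquitin from MCL1, was higher in all 4 lines, with a mean of 1.06 ± 0.46 log2 (SD, n = 4 lines; adjusted p = 0.122 by limma). USP13, of the same kind, had a mean of -0.59 ± 0.43 and HUWE1, a ligase for MCL1, one of 0.11 ± 0.57. Of 13 measured transcription factors with known BCL2 family targets, 0 passed by limma and 4 had an unadjusted p under 0.05, with 9 means higher and 4 lower, or 5 higher and 8 lower without HL60. MYC, which drives growth and sensitises cells to apoptosis, was lower in all 4 lines, by a mean of -2.58 ± 1.58 (adjusted p = 0.122 by limma), with -4.62 in HL60 and -0.76 in K562. FOXO3, a known inducer of BCL2L11, was higher in all 4 lines, with a mean of 0.92 ± 0.47 (adjusted p = 0.133 by limma), and DDIT3, a factor of the unfolded protein response, had a mean of 0.90 ± 0.71.

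**Figure D4:**
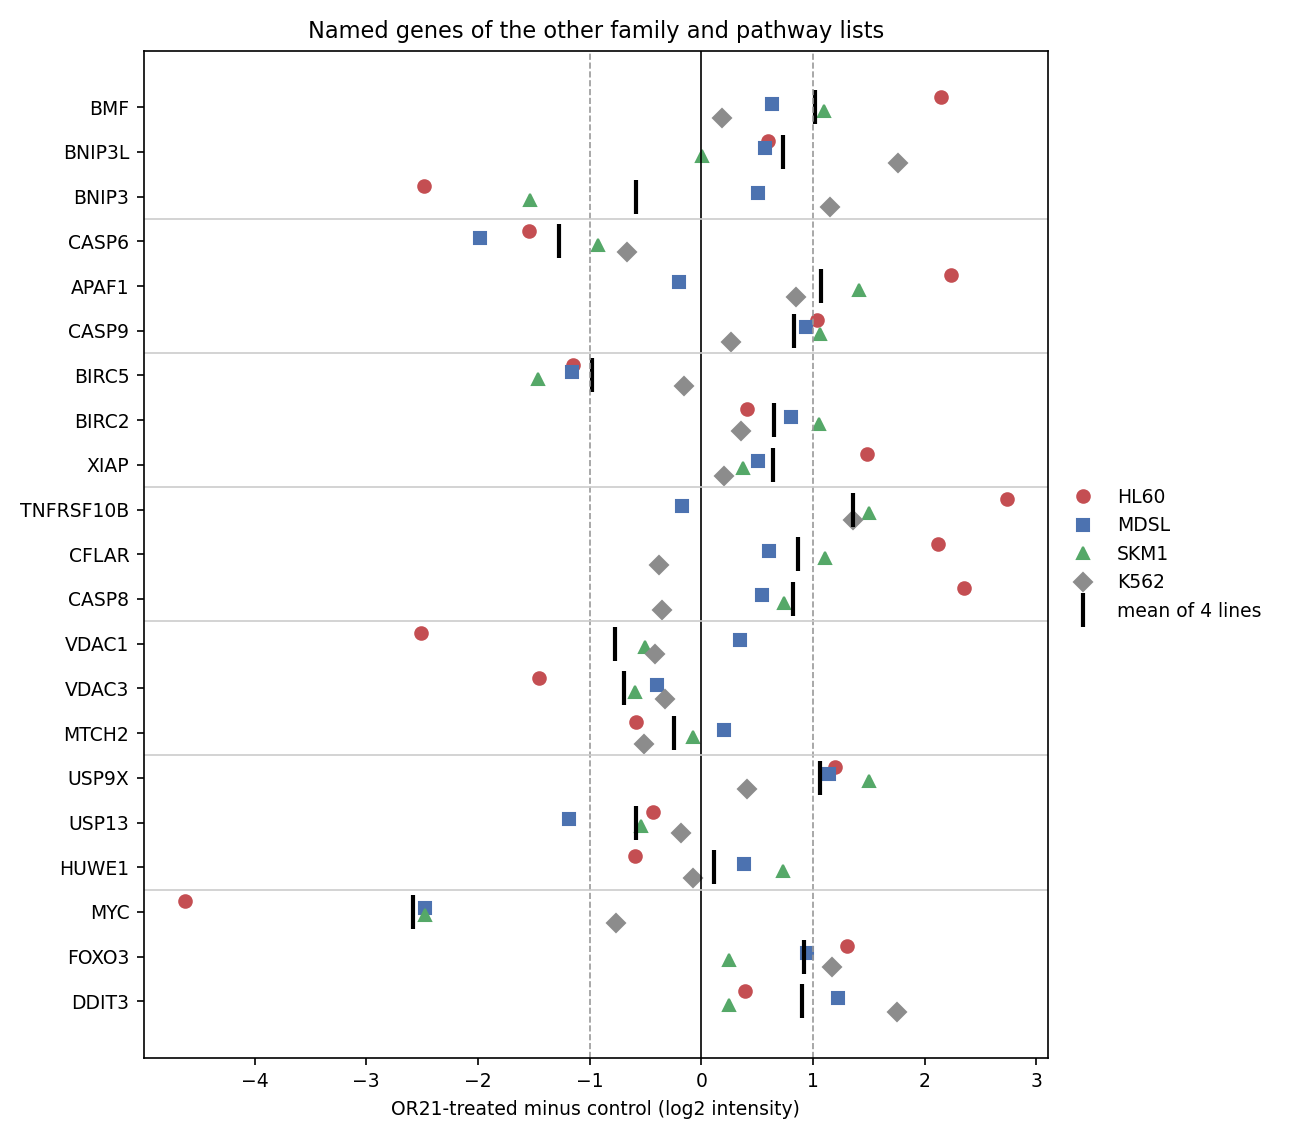
OR21-treated minus control log2 intensity (x axis) of the 3 genes with the widest mean differences in each pathway list (y axis, lists parted by grey lines), with 1 symbol per line, a black bar for the mean of 4 lines and dashed lines at 2-fold. MYC and CASP6 lie left of 0 and USP9X and FOXO3 right of 0 in all 4 lines.

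For each guardian the genes with the most similar pattern over the 10 arrays were looked up among 8099 genes, as a description only, since arrays share lines and treatments. BCL2 was followed most closely by LRRC8D, at a Pearson r of 0.95, ATXN10, at 0.95, and ZC4H2, at 0.95. BCL2L1 was nearest to ELOVL7, PRMT2 and ENPP3, each at 0.97. MCL1 had lower values, 0.93 with ADAM8, 0.90 with ADCY4 and 0.89 with SBNO2. BCL2A1 was nearest to CARD6, at 0.98, and to ZNF211 and TET2, both at 0.97.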

How the data were processed

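RNA of 10 samples was hybridised to 1-colour arrays after biotin labelling, per the labels. The authors deposited an intensity per probe set on a linear scale, from 4.25 to 405294, and their software, background correction and normalization are not given in the sources used here. Their log2 was taken without a pseudocount. Of 24351 rows, 17709 had 1 gene symbol in the platform annotation and 0 had several. For 20 genes with more than 1 probe set, that with the highest mean was kept, which left 17687 genes, with no filter. 0 value columns belonged to no sample.

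The OR21 response was fitted with limma 3.58.1 in R 4.3.3 (lmFit and eBayes) on 8 arrays, blocked by cell line, two-sided, with Benjamini-Hochberg adjustment over all genes and a threshold of 0.05. The treated and control arrays of a line share that line, which is the pairing and the only replicate. The p-values thus measure how the response varied from line to line, with dose, disease and array noise mixed in, and rest on each gene's spread being drawn toward that of all genes (3.49 prior and 3 residual degrees of freedom). Lines at 500 nM and 100 nM were compared by an interaction term. Resistant derivatives and single lines had 1 array per condition and were counted at 2-fold with no test. Precision is limited by the number of arrays. The steps were tested on simulated data.

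The members and lists were chosen with earlier results of these data known. Named were all members, the 3 genes of each pathway list with the widest mean difference, and for each guardian the 3 genes with the highest Pearson r among genes whose highest value reached its array's median and whose SD was at least 0.5 log2. Cell type markers named to check labels were chosen from fixed lists after their values were seen. Motifs were counted on both strands of the 250 bases before each RefSeq start (GRCh38.p14). The 9 members with an entry had 14 windows. Alternatives were quantile normalization, median centring, spike scaling, a pseudocount of 16, the mean of probe sets, no cell line block, limma-trend, a filter at the 30th percentile and leaving out each line.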

Additional observations from a re-analysis of the deposited data

Results flagged for a closer look

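In groups of 4 values, 18 were examined for 1 value far from the others and in 2 the gap over the range passed Dixon's critical value, where chance gives about 1 in 20. The BCL2 response to OR21 was set apart by HL60, at -2.69 log2 against -1.47 to -1.64 in the other lines (gap ratio 0.861). Scaled to the hybridisation spikes, which were high on the array of treated HL60, the response was -3.45 there against -1.41 to -1.53 in the other lines. The BCL2L11 control level was set apart by HL60, at 10.32 log2 against 9.19 to 9.31 in the other lines (gap ratio 0.901). BID differed in opposite directions in the 500 nM and 100 nM lines, with a difference between them of -1.19 log2. The MDSL difference was only 0.06, and its direction turned with quantile normalization and relative to background. The interaction term had an adjusted p of 0.877 by limma, so it did not pass.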

How the results depend on the processing

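Of 522 values recomputed for single members under the alternatives, 491 kept their direction and their side of the threshold, 30 moved and 1 became stronger. In the limma fits no call could be reversed, since no member passed in the main run. A changed sign was counted as moved. The mean of probe sets, no cell line block, limma-trend and the filter of dim genes left each member's mean difference unchanged, so no direction could turn. The mean of probe sets also left the members' differences in single lines and derivatives unchanged. Part of the 491 was thus fixed in advance. The largest effect came from scaling to the hybridisation spikes, which lowered treated HL60: 1 member, BCL2, then passed the threshold over 4 lines, as did 240 genes in all, and 18 genes passed for dose. The adjusted p of BCL2 ran from 0.0194 to 0.982 over its alternatives by limma, the latter with no cell line block. With spike scaling, members at least 2-fold apart were 1 higher and 2 lower in HL60, 1 lower in K562 and 1 lower between the derivatives. Median centring gave 1 higher in SKM1, 4 lower in K562 and 0 higher in AZA resistant cells. Quantile normalization gave 2 higher in SKM1, 2 higher in AZA resistant cells and 1 lower between the derivatives. A pseudocount of 16 gave 2 higher in SKM1. No share of all genes under these alternatives stands beside these counts. The 7 genes past the threshold over 4 lines became 3 with a pseudocount of 16 and 1 with no replicate block, under which the count of members stayed at 0. Leaving out each line gave 0 to 5 genes by limma: 1 without HL60, 5 without MDSL, 0 without SKM1, with 2181 at an unadjusted p under 0.05, and 2 without K562. Members past the threshold were 0 in each of these fits. For dose, the sign turned without K562 for MCL1 (0.99), BCL2A1 (0.99), BAX (0.06) and PMAIP1 (0.69), and without SKM1 for BCL2A1 (0.40) and PMAIP1 (0.12), none past the threshold. The cause of these shifts was not tested. Lines were the only replicates, so array noise and differences between lines cannot be told apart.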
